A study of Mus musculus with 4 samples.

Results

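The type I interferon response genes were a list of 36 genes that cells switch on when interferon alpha or beta reaches them, among them the Mx, Ifit, Oas and Parp genes and the factors Irf7, Irf9 and Stat2. Genes were put on it by name, and no level measured here was part of the rule. The choice was, however, made with earlier results of these data known. Each gene was represented by the array probe set (a group of short probes for one transcript) that named no other gene and had the highest mean over the arrays. Of the 36 genes, 34 had such a probe set, out of 18193 named genes measured. Isg15 shared its probe set with another gene and Ifi44 had no probe set naming it, so neither has a value here. The 34 genes had 57 probe sets in all.

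Type I interferons bind the receptor pair Ifnar1 and Ifnar2, which act through the kinases Jak1 and Tyk2. The kinases activate Stat2, which acts with Irf9 in a complex that binds interferon-stimulated response elements in promoters. The induced proteins sense foreign RNA, block viral entry and translation, or feed back on the receptor. In bone marrow the same interferons are known to drive quiescent hematopoietic stem cells into division. Sca-1, one of the surface proteins used to sort these cells, is itself induced by interferon.

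The study asked whether hematopoietic stem cells of adult mice need hedgehog signalling, which passes through the membrane protein Smoothened (Smo). The 4 arrays were 1 each of Smo-deficient LSK, WT LSK, Smo-deficient MP and WT MP cells. LSK cells (Lin-ckit+Sca1+) hold the hematopoietic stem cells and multipotent progenitors, and MP cells (Lin-ckit+Sca1-) are myeloid progenitors. Smo-deficient mice were Smo flox/flox, Mx1Cre+, and WT mice were Smo flox/flox, Mx1Cre-, so both carried the floxed alleles. All mice, WT included, were given polyI:C, a synthetic double-stranded RNA that induces type I interferon, by intraperitoneal injection at 20 ug/g on alternate days, 3 times in all. Marrow was taken 6 weeks after treatment. Cre was driven by the promoter of Mx1, itself an interferon response gene, in every tissue that responds to interferon. Marrow of 4 mice per genotype, of mixed sex, was pooled and both populations were sorted from that pool. Ages were not given, and the strain was labelled C57BL/6x130 for Smo-deficient LSK, C57BL/6x129 for WT LSK, C57BL/6x132 for Smo-deficient MP and C57BL/6x131 for WT MP. The last number of these strain labels differs even between samples sorted from the same pool, so it may not mark a difference in strain. No group went without polyI:C, so the arrays hold no baseline for its effect. Smo deletion, the Cre transgene and the pool coincided and cannot be told apart.

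A pair of probe sets for Smo matched the genotype labels. The one with the wider gap had log2 intensities of 6.13 in Smo-deficient LSK and 10.81 in WT LSK, and of 6.36 in Smo-deficient MP and 10.40 in WT MP. Array medians lay between 149.1 and 150.3 on the intensity scale. Upper quartiles were 609.7 in Smo-deficient LSK and 591.5 in WT LSK, against 543.1 in Smo-deficient MP and 563.9 in WT MP. The arrays were thus less level among bright probe sets, which ran higher in LSK. Markers of the sorted LSK cells had summed intensities of 33220 and 23308 in the LSK arrays (Smo-deficient and WT), against 14548 and 10994 in the MP arrays, over 6 of 7 markers. Ly6a, which encodes Sca-1, had no probe set of its own. Markers of MP cells summed to 62147 and 47831 in LSK, against 107492 and 79646 in MP. In bulk samples such as these, fewer cells of a type and less RNA per cell cannot be told apart.

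LSK cells carried more transcript of many of the tested interferon response genes than MP cells did, in both pools. Probe sets whose mean over the 4 arrays lay above the median probe set, a log2 intensity of 7.23, were tested. This filter kept 29 of the 34 genes and left out Ifit1, Ifit3, Stat2, Mx1 and Ddx60 as dim. With limma, the pool as a block and Benjamini-Hochberg adjustment over 22518 probe sets, 14 of the 29 were higher in LSK at an adjusted p under 0.05 and 0 were lower. Of all 11904 named genes tested, 16.4% were higher in LSK and 7.54% were lower. At an unadjusted p under 0.05, limma found 19 of the 29 higher and 1 lower, beside 23.5% and 14.2% of the named genes tested. After quantile normalization, 1 passed as lower, Oasl1, named here after its values were seen. The same renormalization left 55.1% of the calls over all genes on the higher side, against 68.5% on the deposited scale. Since the filter ran on the mean of all arrays, it favoured genes that were bright in at least one population. Without it, 15 of the 34 genes passed as higher, beside 10.8% of the 18193 named genes, with Ifit1 and the RNA helicase Ddx60 gained and Psmb8 lost. Without the pool as a block, 7 of the 29 passed as higher, beside 4.7% of the named genes tested.

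The test rested on 2 pairs of arrays, 1 pair per pool, which left 1 degree of freedom for the error. That error is the disagreement of the pools, which also differ in genotype. In limma it was drawn toward the error of other probe sets of similar brightness. An SE given here is therefore not the spread of a gene's own 2 pools. Ifit2 had 0.79 and 0.80 in the pools and an SE of 0.11. Variation from mouse to mouse does not enter the p-values. Over all 34 genes the median LSK minus MP difference was 0.37 on the log2 scale (0.50 in the Smo-deficient pool and 0.27 in the WT pool), beside -0.04 over all named genes. Past the filter, which leaves out dim genes, the medians were 0.40 for the 29 response genes and 0.0005 for the 11904 named genes. LSK exceeded MP in both pools for 25 of the 34, where 31.3% of named genes did so. The reverse held in both pools for 5, namely Ifit3, Stat2, Oasl1, Cmpk2 and Zbp1, and none of these passed the test or, for the dim Ifit3 and Stat2, was tested.

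**Figure D1:**
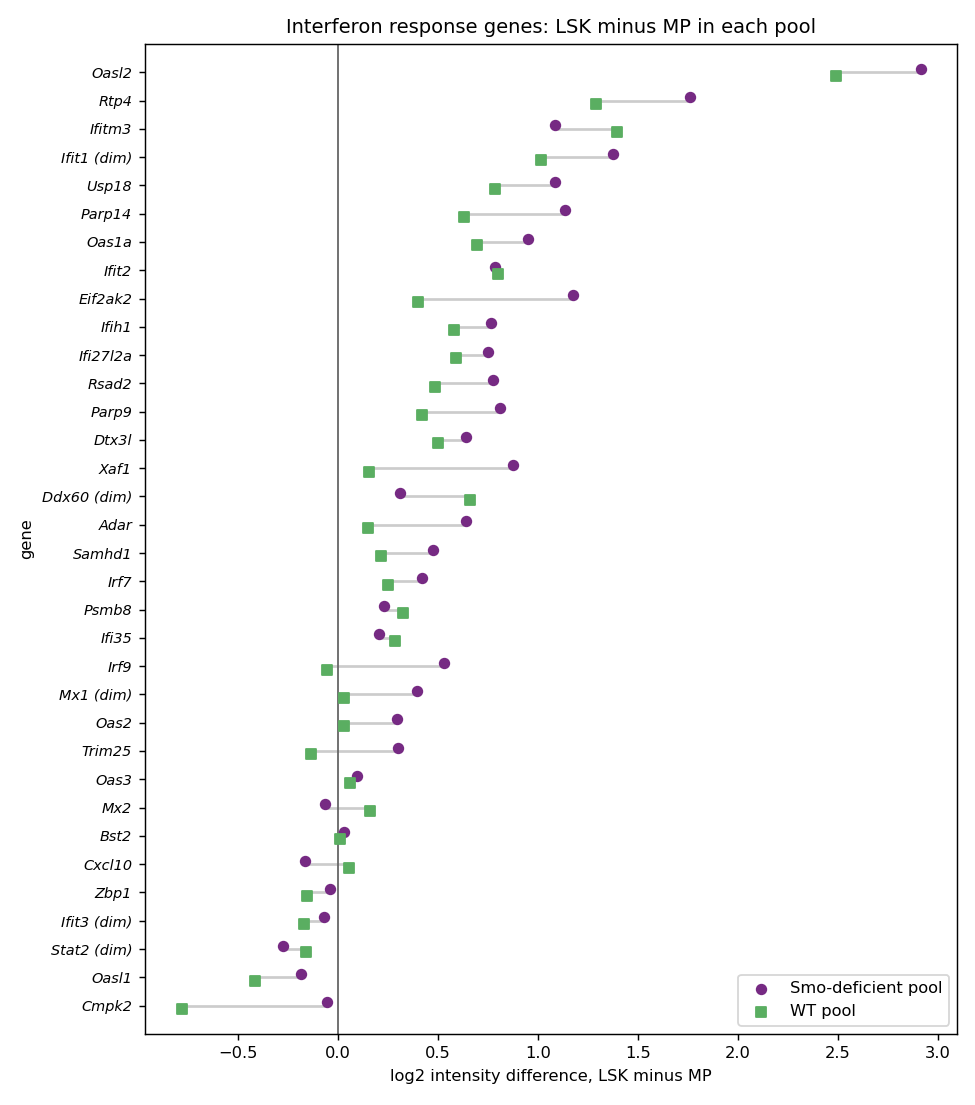
Difference in log2 intensity between LSK and MP cells (x axis) for each of the 34 genes (y axis), 1 point per pool. Circles are the Smo-deficient pool, squares the WT pool, the grey lines join them, and dim marks probe sets below the filter. Oasl2 stands far to the right in both pools at 2.91 and 2.49, while Cmpk2, lowest by the mean of the pools, is at -0.05 and -0.78.

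Among the 10 genes for sensing and RNA enzymes, 9 were tested and 4 passed as higher in LSK: Oasl2, Oas1a, Eif2ak2 and Ifih1. Oasl2, a member of the oligoadenylate synthetase-like family, had log2 intensities of 10.06 in Smo-deficient LSK and 9.49 in WT LSK, against 7.15 in Smo-deficient MP and 7.00 in WT MP. Both LSK arrays lay far above both MP arrays, which were below the filter level of 7.23. The mean difference as measured was 2.70 ± 0.14 (limma SE, n = 2 pairs), with a limma Benjamini-Hochberg adjusted p of 0.000141. No background level was measured here, so with MP arrays this dim its exact size is uncertain. Its genomic neighbour Oasl1, of the same family, differed by -0.30 ± 0.12 and did not pass (limma adjusted p = 0.121).

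Eif2ak2 encodes PKR, the kinase that stops translation when it binds double-stranded RNA. Its log2 intensities were 8.32 in Smo-deficient LSK and 8.21 in WT LSK, against 7.15 in Smo-deficient MP and 7.81 in WT MP. The LSK arrays lay above the MP arrays in both pools, by 1.17 in the Smo-deficient pool and 0.40 in the WT pool, and the mean of 0.79 ± 0.18 passed (limma adjusted p = 0.0266). A second Eif2ak2 probe set past the filter differed by -0.01 (limma adjusted p = 0.947), so the call rests on 1 probe set. Oas1a, which makes the oligoadenylates that activate RNase L, was higher in LSK by 0.82 ± 0.12 (limma adjusted p = 0.00457). Ifih1 encodes MDA5, the cytosolic receptor for long double-stranded RNA and hence for polyI:C, and was higher by 0.67 ± 0.11 (limma adjusted p = 0.00702). The RNA editor Adar differed by 0.40, the synthetases Oas2 and Oas3 by 0.16 and 0.08 and the Z-nucleic acid sensor Zbp1 by -0.10, and none of these passed.

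Of 11 antiviral effectors, 8 were tested and 4 passed as higher in LSK: Rtp4, Ifitm3, Ifit2 and Rsad2. Rtp4, a receptor transport protein induced by interferon, had log2 intensities of 10.56 in Smo-deficient LSK and 10.20 in WT LSK, against 8.80 in Smo-deficient MP and 8.91 in WT MP. The populations did not overlap, and the difference was 1.53 ± 0.14 (limma adjusted p = 0.00105). Ifitm3, a membrane protein that blocks the entry of viruses from endosomes, had 13.19 in Smo-deficient LSK and 13.18 in WT LSK, against 12.11 in Smo-deficient MP and 11.78 in WT MP. Its LSK arrays were nearly equal and both lay above MP, by 1.24 ± 0.09 (limma adjusted p = 0.000514). Oasl2, Rtp4 and Ifitm3 were the 3 of the 29 that both passed and differed by at least 2-fold, beside 3.43% of the named genes tested.

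Ifit1, which binds foreign RNA through its unmodified cap, had 7.89 in Smo-deficient LSK and 7.49 in WT LSK, against 6.51 in Smo-deficient MP and 6.48 in WT MP. Its MP arrays were dim, so the size of the mean difference of 1.19 is likewise uncertain. It was not tested with the filter, and in the fit without the filter it passed (limma adjusted p = 0.00144). Ifit2, of the same tetratricopeptide family, was higher in LSK by 0.79 ± 0.11 (limma adjusted p = 0.00369), with 0.79 in the Smo-deficient pool and 0.80 in the WT pool. Ifit3, which lies next to Ifit2, was dim and had -0.07 and -0.17 in the same pools. Rsad2 (viperin), which makes a chain-terminating nucleotide, was higher by 0.63 ± 0.11 (limma adjusted p = 0.0102), and another of its probe sets passed too, at 0.89. Cmpk2, the nucleotide kinase gene beside Rsad2, differed by -0.42 ± 0.18 (limma adjusted p = 0.148).

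Mx1 is the gene whose promoter drove Cre, and most inbred laboratory strains carry a defective copy of it. Its log2 intensities were 5.57 in Smo-deficient LSK and 5.41 in WT LSK, against 5.18 in Smo-deficient MP and 5.39 in WT MP. All 4 arrays were dim. Mx2, also a dynamin-like GTPase, and the viral tether Bst2 differed between the populations by 0.05 and 0.02 and did not pass, and neither did Samhd1, which degrades deoxynucleotides, at 0.34 (limma adjusted p = 0.0792). The 3 other Samhd1 probe sets past the filter ranged from -0.24 to 0.05.

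**Figure D2:**
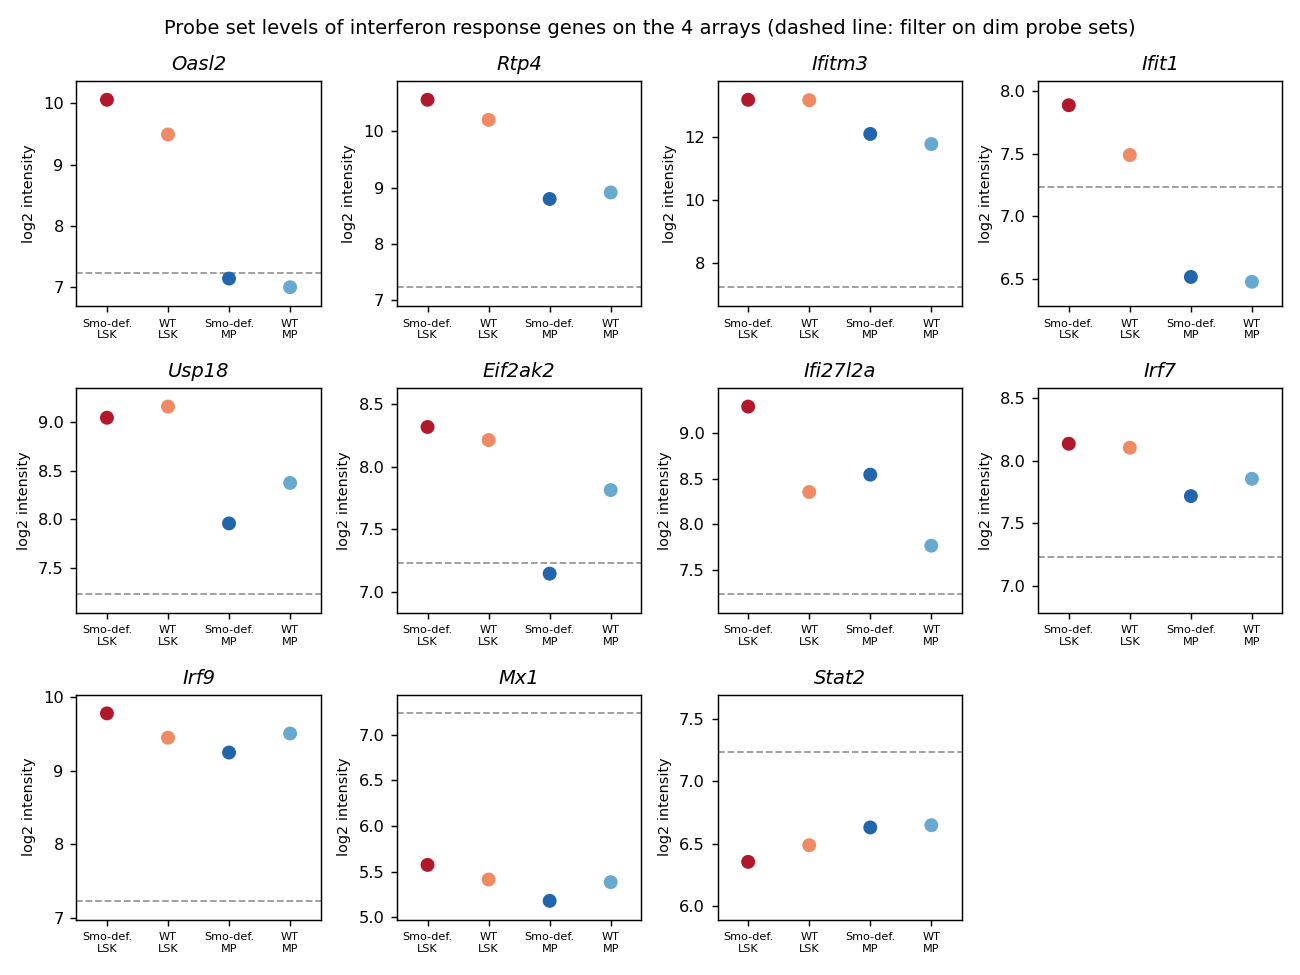
Log2 intensity (y axis) of the 11 genes followed in full on the 4 arrays, in the order Smo-deficient LSK, WT LSK, Smo-deficient MP and WT MP, 1 point per array, with a dashed line at the filter level of 7.23. Oasl2, Rtp4, Ifitm3, Ifit1, Usp18, Eif2ak2, Irf7 and, narrowly, the dim Mx1 have both LSK points above both MP points, and the dim Stat2 has both below. The populations overlap for Irf9 and Ifi27l2a, and Ifi27l2a is higher in each Smo-deficient array than in its WT counterpart.

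Of the 9 signalling and feedback genes, 7 were tested and 4 passed as higher in LSK, namely Usp18, Parp14, Parp9 and Dtx3l. Usp18 removes Isg15 from proteins and damps the receptor at Ifnar2. It had 9.04 in Smo-deficient LSK and 9.16 in WT LSK, against 7.96 in Smo-deficient MP and 8.37 in WT MP. The populations did not overlap, and LSK was higher by 0.94 ± 0.12 (limma adjusted p = 0.00346). Parp14, an ADP-ribosyltransferase, was higher by 0.88 ± 0.15 (limma adjusted p = 0.00826), Parp9 by 0.61 ± 0.13 (limma adjusted p = 0.0203) and Dtx3l, the ubiquitin ligase that partners Parp9, by 0.57 ± 0.11 (limma adjusted p = 0.0114). These last 3 lie side by side in the genome. A second Dtx3l probe set differed by 0.22 and did not pass.

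Of the transcription factors, Irf9 and Irf7 did not pass and Stat2 was not tested. Irf9 had 9.78 in Smo-deficient LSK and 9.45 in WT LSK, against 9.24 in Smo-deficient MP and 9.50 in WT MP, so that the populations overlapped, and it did not pass (0.24, limma adjusted p = 0.330). Irf7, which drives the interferon genes themselves, had 8.14 in Smo-deficient LSK and 8.10 in WT LSK, against 7.72 in Smo-deficient MP and 7.86 in WT MP. Its LSK arrays lay above its MP arrays, but the difference of 0.33 ± 0.11 did not pass (limma adjusted p = 0.0802), although it passed when all probe sets of a gene were averaged. Stat2 was dim, at 6.36 in Smo-deficient LSK and 6.49 in WT LSK, against 6.63 in Smo-deficient MP and 6.65 in WT MP. Trim25, the ubiquitin ligase that acts on the RNA sensor RIG-I, differed by 0.08 and did not pass.

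Of the other induced genes, 5 were tested, of which Ifi27l2a and Psmb8 passed as higher in LSK. Ifi27l2a, a small protein strongly induced by interferon, had 9.29 in Smo-deficient LSK and 8.35 in WT LSK, against 8.54 in Smo-deficient MP and 7.76 in WT MP. LSK exceeded MP within each pool, by 0.67 ± 0.11 (limma adjusted p = 0.00835), although WT LSK lay below Smo-deficient MP. Psmb8, an immunoproteasome subunit, was higher by 0.28 ± 0.07 (limma adjusted p = 0.0406). This smallest of the 14 calls did not pass without the filter or after quantile normalization, among other settings. Xaf1 (0.52) and Ifi35 (0.25) did not pass, although a second Xaf1 probe set did, at 0.49, and the chemokine gene Cxcl10 differed by -0.05. Of the 10 genes with more than 1 probe set past the filter, 6 had the same call on every one.

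The promoters of the genes were read for the core of the interferon-stimulated response element, GAAANNGAAA, on either strand, in RefSeq windows (build GRCm38.p6) of 250 bases before to 50 after the start. Of the 36 genes, 27 had a window and 13 of these (48.1%) held the core, against 3.99% of 27025 genes and 3.44% of 32851 windows. Of the 9 genes with a window that were called higher in LSK, 5 held it, and of the 12 tested without passing, 3 did. Shown are the 170 bases before the start, 5′ to 3′ on the gene's strand, with matches in capitals, for 3 genes that were higher in LSK (Ifit1, in the fit without the filter, Oas1a and Rsad2) and 3 with no call (Bst2 and Oas3, which did not pass, and the dim Ifit3). They lie at chr19:34640719-34640888 (plus strand) for Ifit1, chr5:120907526-120907695 (minus) for Oas1a, chr12:26456453-26456622 (minus) for Rsad2, chr8:71537473-71537642 (minus) for Bst2, chr5:120777660-120777829 (minus) for Oas3 and chr19:34583359-34583528 (plus) for Ifit3.
Ifit1: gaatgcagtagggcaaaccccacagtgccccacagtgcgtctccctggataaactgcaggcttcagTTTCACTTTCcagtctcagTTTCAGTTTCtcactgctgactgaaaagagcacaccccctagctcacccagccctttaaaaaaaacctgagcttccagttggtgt
Oas1a: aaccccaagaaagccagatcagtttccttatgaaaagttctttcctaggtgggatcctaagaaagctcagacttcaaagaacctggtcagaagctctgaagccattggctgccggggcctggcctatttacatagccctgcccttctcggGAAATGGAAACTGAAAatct
Rsad2: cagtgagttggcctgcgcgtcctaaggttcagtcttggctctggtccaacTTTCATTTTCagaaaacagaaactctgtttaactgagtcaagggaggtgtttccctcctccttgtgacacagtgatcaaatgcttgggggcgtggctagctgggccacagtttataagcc
Bst2: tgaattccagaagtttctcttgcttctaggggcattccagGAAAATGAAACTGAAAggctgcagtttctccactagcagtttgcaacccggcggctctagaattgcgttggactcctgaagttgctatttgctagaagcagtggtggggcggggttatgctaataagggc
Oas3: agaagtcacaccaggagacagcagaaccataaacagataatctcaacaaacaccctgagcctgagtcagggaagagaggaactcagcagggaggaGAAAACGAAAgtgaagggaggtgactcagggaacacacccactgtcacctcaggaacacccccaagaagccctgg
Ifit3: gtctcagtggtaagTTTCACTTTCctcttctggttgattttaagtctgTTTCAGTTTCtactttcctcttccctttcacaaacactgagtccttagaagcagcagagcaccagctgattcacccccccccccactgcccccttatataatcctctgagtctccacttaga

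The genes shown were picked for holding a match in this stretch, so its presence in both sets is not a result. Ifit1 and Ifit3 each held 2, both written here on the opposite strand, and Oas1a and Bst2 each held an overlapping pair. Oasl2, Ifit2, Dtx3l and Psmb8 were called higher in LSK and had a window, but held no match. LSK minus MP was 1.19 for Ifit1 and 0.82 for Oas1a, against 0.02 for Bst2 and -0.12 for Ifit3. A match describes letters and does not show a bound site.

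Other interferon-induced genes outside the 36, such as antigen processing genes and the Slfn family, gave the same count: 14 of 29 tested were higher in LSK, 48.3% as for the response genes, and 1 was lower, Lgals9. The largest difference among them was that of Uba7, the activating enzyme for Isg15, at 1.46 ± 0.11 (limma adjusted p = 0.000438). Cd274, the checkpoint ligand PD-L1, followed at 1.18, and Ifitm1, Trim30a and Tdrd7 passed at 1.06, 1.03 and 1.03. The other Uba7 probe sets past the filter, 2 in number, differed by 0.03 and 1.55.

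Of 13 genes for the receptor, kinases, factors and inhibitors, 5 passed as higher in LSK (Ifnar1, Irf1, Irf2, Irf5 and Socs3) and 0 as lower by limma. The share higher was 38.5%, beside 16.4% of the named genes tested. Irf5 passed narrowly (limma adjusted p = 0.0450) and on 1 probe set, since its other one past the filter differed by 0.003. Ifnar1 had 9.77 in Smo-deficient LSK and 9.54 in WT LSK, against 9.32 in Smo-deficient MP and 9.16 in WT MP, a difference of 0.42 ± 0.11 (limma adjusted p = 0.0410). Ifnar2, the other receptor chain, had 11.06 and 10.80 in LSK, against 11.05 and 10.75 in MP (Smo-deficient before WT in each population), and Tyk2 lay between 10.09 and 10.16 on all arrays, and neither passed. Jak1 differed by 0.39 and did not pass (limma adjusted p = 0.0662). Irf1, a factor of both interferon pathways, was higher by 0.67 ± 0.10 (limma adjusted p = 0.00568). Socs3, a feedback inhibitor of cytokine receptors, had 11.69 in Smo-deficient LSK and 10.92 in WT LSK, against 9.15 in Smo-deficient MP and 8.60 in WT MP, a difference of 2.43 ± 0.12 (limma adjusted p = 0.000141).

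Sensors and adaptors passed as higher in 2 of 8 tested (25%, beside 16.4% of the named genes tested). These were Ddx58, which encodes RIG-I, at 1.16 ± 0.11 (limma adjusted p = 0.00112), and Dhx58. The interferon ligand genes gave no call: 7 were measured, 2 were past the filter and none passed. Their range over all 7 was -0.15 to 0.02.

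**Figure D3:**
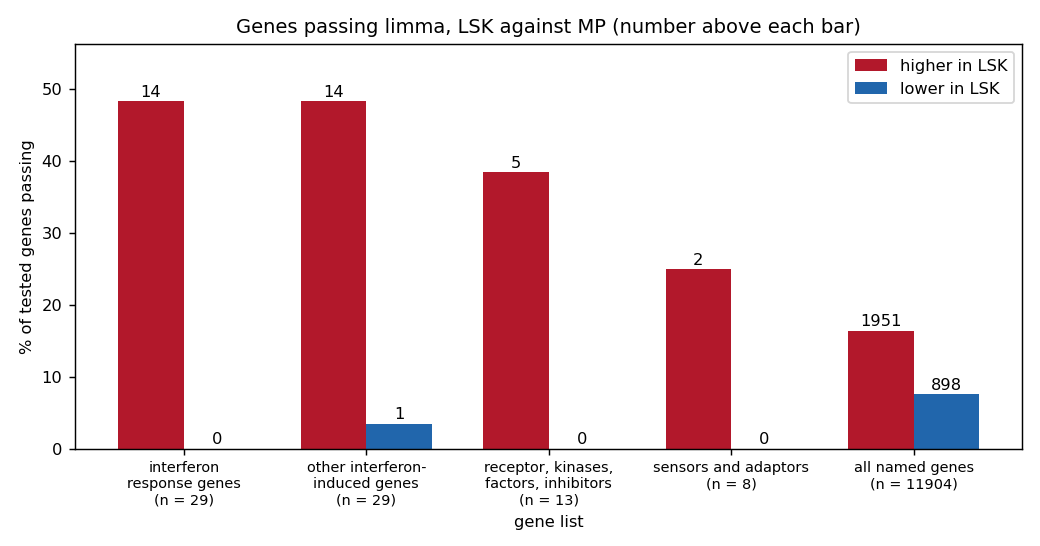
Share of the tested genes (y axis, percent) that passed limma as higher or as lower in LSK than in MP, for each gene list (x axis), with the number of genes above each bar. The interferon response genes and the other interferon-induced genes stand at 48.3% higher, against 16.4% of all named genes.

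Markers of other cell types did not move with this population difference in one way. Plasmacytoid dendritic cells are the main producers of type I interferon. Their 6 markers summed to 2858 and 2409 in Smo-deficient and WT LSK, against 1823 and 1912 in MP, with 4 of 6 higher in LSK in the Smo-deficient pool and 2 of 6 in the WT pool. Siglech, their defining marker, was dim on all 4 arrays (6.77 to 6.94). Macrophage markers were higher in LSK for 6 of 7 in the Smo-deficient pool and for 0 of 7 in the WT pool, and neutrophil markers for 7 of 7 and 0 of 7. B cell markers were so for 5 of 5 and 2 of 5, and mature erythroid markers for 2 of 3 and 0 of 3. In both pools, T and NK cell markers were higher in LSK for 2 of 6 and monocyte markers for 0 of 3. The part of these cells in the interferon genes was not tested.

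Between genotypes the interferon response genes differed little. With 1 array per group there is no replicate check and no test, so sizes were counted. None of the 34 genes was 2-fold apart between Smo-deficient and WT cells in LSK, where 0.742% of named genes were, or in MP, where 0.396% were. At 1.5-fold, 1 gene was higher in Smo-deficient LSK (2.52% of named genes) and 0 were lower (0.726%). In Smo-deficient MP, 1 was higher (1.85%) and 1 was lower (1.55%). These shares are near the background.

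Ifi27l2a was the gene at 1.5-fold in both populations, 1.92-fold higher in Smo-deficient than WT LSK (0.94 on the log2 scale) and 1.72-fold higher in Smo-deficient than WT MP (0.78). It ranked 123 from the highest among 18193 named genes in LSK and 122 in MP. The gene at 1.5-fold lower in Smo-deficient MP was Eif2ak2, at -0.67 on the log2 scale, but its second probe set gave -0.26. The same pair gave 0.10 and -0.15 in LSK. All other genes ranged from -0.31 for Bst2 to 0.57 for Oasl2 in LSK, and from -0.45 for Oasl1 to 0.32 for Ifitm3 in MP.

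Bst2, Ifih1, Oasl1, Usp18 and Ifit2 were lower in the Smo-deficient arrays of both populations, with differences in LSK of -0.31, -0.19, -0.22, -0.11 and -0.17. In MP they were -0.33, -0.37, -0.45, -0.42 and -0.16 in the same order. In all, 10 of 34 genes were higher in the Smo-deficient array of both populations and 7 lower in both, beside 23.9% and 37.5% of named genes. The 10 were Ifi27l2a, Oasl2, Dtx3l, Rsad2, Ifitm3, Ifit1, Ifit3, Oas2, Psmb8 and Zbp1, and the 7 also held Oas3 and Stat2. Of the other lists, Socs3 (0.76 in LSK, 0.55 in MP), Irf2 (0.63 and 0.43), Trim30a (0.45 and 0.66) and the dim RNA sensor Tlr7 (0.84 and 0.22) reached 1.5-fold higher in at least one population. Probe sets of Socs3 other than the one used ranged from -0.37 to 1.18 in MP, and that of Trim30a gave -0.12 in LSK. Another Jak1 probe set gave -1.92 in MP where the one used gave -0.28.

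**Figure D4:**
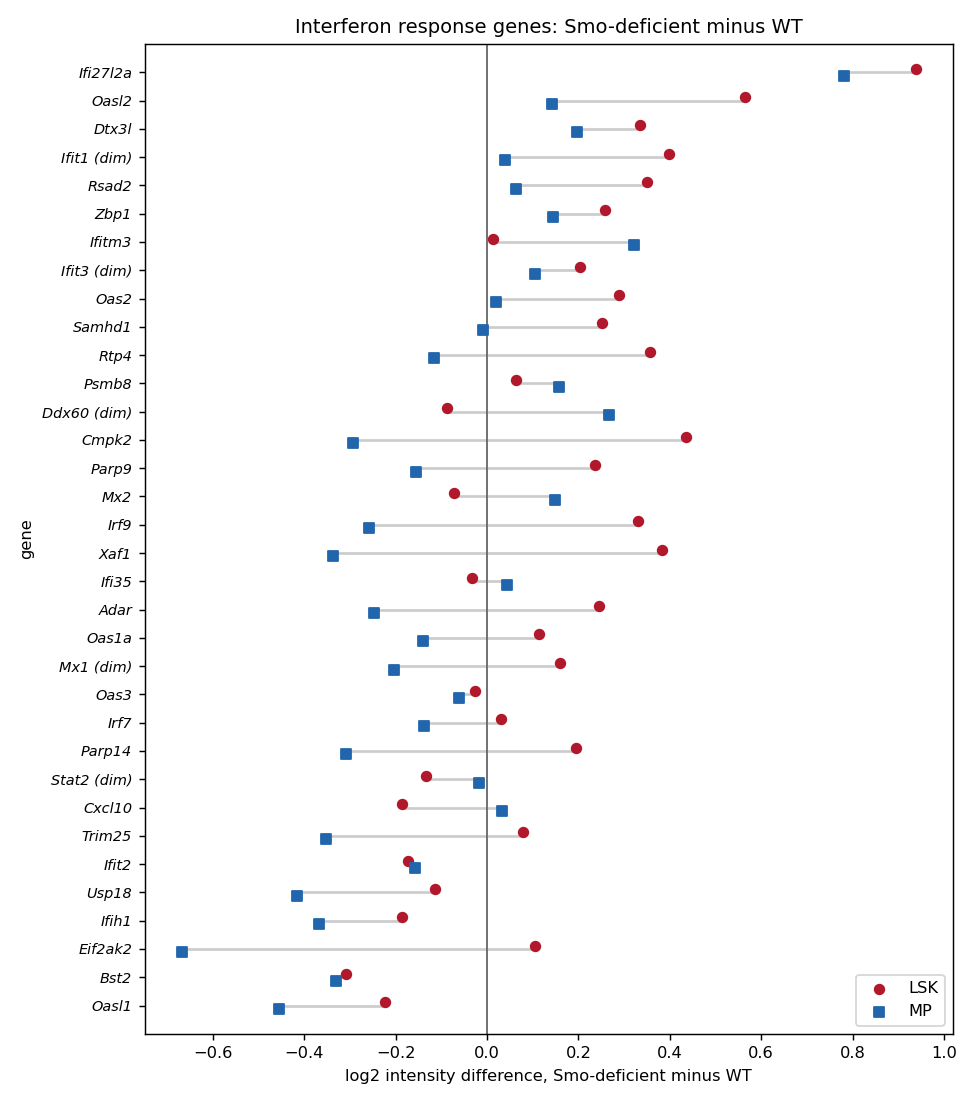
Difference in log2 intensity between Smo-deficient and WT cells (x axis) for each of the 34 genes (y axis). Circles are LSK, squares MP, grey lines join them, and dim marks probe sets below the filter. Ifi27l2a stands apart at 0.94 and 0.78, Eif2ak2 at -0.67 in MP, and many LSK circles lie right of their MP squares.

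The direction of the small genotype differences was not the same in the populations. In LSK, 23 of 34 genes were above 0, with a median of 0.14, where 43.2% of named genes were above 0 and their median was -0.03. In MP, 14 of 34 were above 0, with a median of -0.09, where 43.2% of named genes were above 0 and the median was also -0.03. The pattern of above 0 in LSK with below 0 in MP held for 13 of the 34, against 19.2% of named genes. The genotype difference was greater in LSK than in MP for 26 of 34, against 53.4% of named genes. The median gap was 0.24. After quantile normalization the values were 25 of 34, 45.1% and 0.16. The 29 other interferon-induced genes did not show this excess, with 14 gaps above 0 and a median gap of -0.05. Upper quartiles of the arrays ran the same way, higher in Smo-deficient than WT LSK (609.7 against 591.5) and lower in MP (543.1 against 563.9). The share among named genes past the filter was not counted, and the part of array brightness in the gap was not tested. The MP median of the 34 genes was -0.02 after cyclic loess normalization, close to 0, and their LSK median was 0.08 with all probe sets of a gene averaged.

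Among the signalling and feedback genes, 7 of 8 were below 0 in MP (median -0.21) and 6 of 8 above 0 in LSK (median 0.14). Irf9 was at 0.33 in LSK and -0.26 in MP, and Parp14 at 0.19 and -0.31. The group of Ifi27l2a, Psmb8, Xaf1, Cxcl10 and Ifi35 went the other way, with 4 of 5 above 0 in MP, 2 of 5 gaps above 0 and a median gap of -0.08. Cmpk2 (0.44 in LSK, -0.29 in MP) and Xaf1 (0.38 and -0.34) were split more widely, but a second Xaf1 probe set gave -0.22 and -0.03. None of the 34 gaps between the populations reached 2-fold, and the share of named genes that did was not counted. Macrophage markers were higher in Smo-deficient than WT LSK for 7 of 7 (3373 against 2068 summed) and higher in Smo-deficient than WT MP for 3 of 7 (2959 against 2701). Neutrophil markers were higher in the Smo-deficient array for 7 of 7 in LSK (116926 against 73706) and 7 of 7 in MP (101563 against 89288). Markers of B cells (5 of 5) and mature erythroid cells (3 of 3) were likewise higher in the Smo-deficient array of both populations. So were most markers of the sorted cells: those of LSK for 6 of 6 in LSK and 5 of 6 in MP, and those of MP for 6 of 6 in both. T and NK cell markers were higher for 4 of 6 in LSK and 3 of 6 in MP, and monocyte markers for 2 of 3 in both. The part of any of these cells in the interferon genes was not tested.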

How the data were processed

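RNA of sorted LSK and MP cells, 20 ng per sample, went through 2 rounds of amplification before hybridization to Affymetrix arrays. The authors deposited 1 intensity per probe set and array, made with RMA per the submitters' processing notes (version not given in the sources used here). Such normalization can hide a shift common to most genes. The deposited intensity values were linear and were turned into log2 values with no pseudocount.

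Of 45101 probe sets, 64 were controls. The platform annotation gave 34945 of the others 1 gene, 932 several and 9160 none. Probe sets above the 50th percentile of the mean over the 4 arrays were tested for LSK minus MP with limma 3.58.1 in R 4.3.3 (lmFit, eBayes with trend, two-sided, pool as a block). These were 22518, of which 19711 named 1 gene. They held the representing probe set of 11904 named genes. A gene passed at a Benjamini-Hochberg adjusted p under 0.05. The test was checked on simulated data. Genotype differences were counted at 2-fold and 1.5-fold. Precision is limited by the number of arrays.

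All 36 genes could be named. Values on every array were given for genes 1.5-fold apart between genotypes or 2-fold apart between populations, and for Stat2, Irf9, Irf7, Mx1 and Usp18. Other pathway genes were named if they met those sizes or were Ifnar1, Ifnar2, Jak1, Tyk2, Irf1 or Ly6a; a few more are named where a small count or a pattern called for it, after their values were seen. The genes and lists were chosen with earlier results of these data known.

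The alternatives tried were quantile and cyclic loess normalization, an offset of 32, the mean of all probe sets of a gene, no filter, a filter at the 75th percentile, leaving out cross-hybridising probe sets, no pool block, no trend and a 1.5-fold threshold. Scanner files were not used here. Cross-hybridisation between close relatives (the Oas1, Ifit and Ifitm families) was not tested.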

Additional observations from a re-analysis of the deposited data

Results flagged for a closer look

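The median genotype difference of the 34 interferon response genes was 0.137 in LSK and -0.0886 in MP on the log2 scale, so the populations lay on opposite sides of 0. After cyclic loess normalization the MP median was -0.02, close to 0. Single genes with opposite differences of at least 0.25 were Cmpk2, where the LSK genotype difference exceeded that in MP by 0.729, Xaf1, where it did so by 0.722, and Irf9, where it did so by 0.588. With 1 array per group these differences between the populations were not tested. The gap in Xaf1 was not shared by its second probe set past the filter, which was below 0 in both populations.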

How the results depend on the processing

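The LSK against MP fit was paired by pool, and the labels give replicate number 1 only, so no other pairing was tried. Leaving out an array was not possible, since each group held 1. The count of interferon response genes higher in LSK was 14 and lay between 10 and 15 under quantile and cyclic loess normalization, an offset of 32, the mean of all probe sets, both filters, no trend and no cross-hybridising probe sets. The filter at the 75th percentile gave the 10, of 18 tested, and dropped Oasl2, Usp18, Eif2ak2 and Ifi27l2a untested. Without the pool as a block, 7 passed, and Dtx3l, Eif2ak2, Ifi27l2a, Ifih1, Parp9, Psmb8 and Rsad2 did not. After quantile normalization 1 passed as lower, Oasl1. With a 1.5-fold threshold in place of 2-fold, the genes apart between genotypes numbered 1 in LSK and 2 in MP, against 0 each at 2-fold. The gap between the populations reached 1.5-fold in 4 (Eif2ak2, Cmpk2, Xaf1 and Irf9), against 0 at 2-fold. The share of named genes with such a gap was not counted, so the 4 have no background here. Second probe sets past the filter had gaps of 0.11 for Eif2ak2 and -0.20 for Xaf1. The share of named genes whose genotype difference was higher in LSK than in MP was 45.1% after quantile normalization and 48.1% after cyclic loess, against 53.4% on the deposited scale, while 25 of the 34 response genes were so under both normalizations and 26 on the deposited scale. The filters, the block, the trend and leaving out cross-hybridising probe sets left the LSK minus MP differences of the 14 genes called higher as they were. Only the normalizations, the offset and the averaging of probe sets could change a sign. Under these none of the 14, picked for being higher, changed sign where tested. With all probe sets of a gene averaged, Irf7 and Xaf1 passed as higher and Eif2ak2 and Psmb8 did not. Signal near background limits Mx1, Stat2, Ifit3 and Ddx60, and Ifit1 and Oasl2 in MP.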

Other observations

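Some response genes that lie next to each other in the genome differed in their LSK minus MP values and others did not. Rsad2 had 0.77 in the Smo-deficient pool and 0.49 in the WT pool, whereas its neighbour Cmpk2 had -0.05 and -0.78. Ifit2 had 0.79 and 0.80 in those pools, beside -0.07 and -0.17 for Ifit3. Oasl2 had 2.91 and 2.49, beside -0.18 and -0.42 for Oasl1. Oas2 had 0.30 and 0.03, beside 0.10 and 0.06 for Oas3. The cluster of Parp14, Dtx3l and Parp9 was above 0 in both pools at all 3 genes, with 1.13 and 0.63 for Parp14, 0.64 and 0.50 for Dtx3l and 0.81 and 0.42 for Parp9. These genes were picked for their position, with their values already known.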
